A study of Rattus norvegicus with 18 samples.

Results

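The genes described here encode 5 proteins of the red cell membrane and its underlying skeleton: Slc4a1, Epb42, Gypc, Add2 and Dmtn. They were chosen by name, with no expression value in the rule, but with earlier results of these data known. They are 5 of the 16926 genes with a name on the array. Of 41012 different probes, 9 carried one of these names or, for 1 Gypc probe, the gene's description. The array measured RNA of peripheral blood mononuclear cells (PBMC), a fraction of white cells, mainly lymphocytes and monocytes, that was isolated on a Ficoll gradient. The 18 donors were male Wistar rats, 1 rat per array and 6 rats per diet, put on purified diets at 2 months of age and killed 4 months later after a 14 h fast. The high-protein diet (HPD) supplied 45% of its energy as protein, mostly casein, 45% as carbohydrate and 10% as fat. In the high-fat diet (HFD) fat made up 60% of the energy, and protein and carbohydrate 20% each. In the low-fat control diet (LFD) carbohydrate made up 70%, protein 20% and fat 10%. LFD rats ate freely, and HPD and HFD rats were given amounts matched in energy to what the LFD rats had eaten. One HPD array has a title that calls it HFD replicate 7, while its source name and description call it HPD, and it was counted as HPD replicate 7.

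Each array compared the Cy5-labelled RNA of 1 rat with a Cy3-labelled equimolar pool of the samples. A value below is the log2 ratio of Cy5 to Cy3, so 0 means the level of the pool and a difference of 1 is a doubling. Over all probes the median ratio was below 0 on every array, from -0.21 (LFD replicate 6) to -0.095 (HFD replicate 5). The main values were not centred on it. The ratio places a rat against the pool for 1 probe, and it does not rank genes by abundance. In the mixed RNA of a blood preparation, fewer cells of a type and less RNA per cell cannot be told apart. The arrays lay on 5 slides. Slide 1 held 2 HFD and 2 LFD arrays and no HPD array, and slide 5 held 1 HFD and 1 LFD array. The median Cy5 signal was 61.5 to 84.3 units over a median background of 31 to 37, and 53.1% to 63.5% of probes were well above background on an array. Markers of the labelled cell type were present, with 18 of 18 T cell, 9 of 9 B cell and 12 of 13 monocyte marker genes on the array passing the detection filter.

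The red cell membrane is held in shape by a meshwork of spectrin tetramers joined at nodes of short actin filaments. Band 3, the chloride/bicarbonate exchanger made by Slc4a1, anchors this meshwork through ankyrin, and protein 4.2, made by Epb42, strengthens that link. Protein 4.2 belongs by sequence to the transglutaminases but has lost their enzyme activity. Glycophorin C, made by Gypc, ties the membrane to the actin nodes through another skeleton protein, encoded by Epb41, and in human its transcript also occurs in white blood cells. Beta-adducin (Add2) caps actin filaments at the nodes, and dematin (Dmtn) bundles actin there. Red cells of mammals lose their nucleus, and young ones (reticulocytes) enter the blood with RNA left over from their precursors.

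The 9 probes fall on 5 rat chromosomes, with positions from the array design on rn4. The exons or untranslated ends that the probes cover were not analysed here. Slc4a1 has probes at chr10:91455352-91455411 and chr10:91458828-91459400, both on the minus strand. Epb42 has 1 probe, at chr3:107806571-107806630 on the minus strand. Gypc has probes at chr18:24975734-24975793 and chr18:24989967-24990026, both on the minus strand. Add2 has probes at chr4:120266375-120266434 and chr4:120275015-120275074 on the plus strand, and Dmtn has probes at chr15:51005207-51005266 and chr15:51013382-51014377 on the minus strand. Probe 1 of a gene is the brighter one. A filter required a Cy5 signal well above background in 5 or more of the 18 arrays, and 6 of the 9 probes passed. Probe 1 of each gene was well above background on all 18 arrays. Probe 2 of Add2 was so on 15 arrays, namely 6 of 6 HPD, 5 of 6 HFD and 4 of 6 LFD arrays. Probe 2 of Slc4a1 reached that level on 4 arrays, 0 of 6 HPD, 2 of 6 HFD and 2 of 6 LFD arrays. Probe 2 of Gypc and probe 2 of Dmtn did so on 0 of 18 arrays and enter no comparison. No spot of the 9 probes was saturated or marked as an outlier.

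Promoter sequences were at hand for 3 of the 5 genes and are shown to set Epb42 and Add2, which varied together across the rats, beside Gypc, whose correlations with them were weak. Each is 300 bases of RefSeq sequence on GRCr8, from 250 bases before the annotated start of transcription to 50 bases from it onward, read on the gene's own strand. They lie at chr3:128451634-128451933 for Epb42 (minus strand), chr4:120054628-120054927 for Add2 (plus strand) and chr18:24467543-24467842 for Gypc (minus strand). Capitals mark matches on either strand to motifs that erythroid and general factors are known to bind: the GATA motif (AGATAA or AGATAG and also TGATAA or TGATAG), CCACACCC (bound by Klf1), CCGCCC, and the E-boxes CAGCTG and CAGATG.
Epb42 promoter: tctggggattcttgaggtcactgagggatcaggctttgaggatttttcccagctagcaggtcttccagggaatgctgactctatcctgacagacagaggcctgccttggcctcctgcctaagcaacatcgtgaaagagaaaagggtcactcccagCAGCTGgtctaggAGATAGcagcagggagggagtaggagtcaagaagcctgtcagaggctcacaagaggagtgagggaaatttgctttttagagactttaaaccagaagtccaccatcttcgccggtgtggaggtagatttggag
Add2 promoter: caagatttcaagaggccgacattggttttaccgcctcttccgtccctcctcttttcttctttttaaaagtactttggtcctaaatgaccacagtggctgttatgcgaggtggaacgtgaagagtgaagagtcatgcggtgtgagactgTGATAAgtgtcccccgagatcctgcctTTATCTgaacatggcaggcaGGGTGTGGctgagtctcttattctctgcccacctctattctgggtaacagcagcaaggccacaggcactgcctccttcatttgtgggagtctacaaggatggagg
Gypc promoter: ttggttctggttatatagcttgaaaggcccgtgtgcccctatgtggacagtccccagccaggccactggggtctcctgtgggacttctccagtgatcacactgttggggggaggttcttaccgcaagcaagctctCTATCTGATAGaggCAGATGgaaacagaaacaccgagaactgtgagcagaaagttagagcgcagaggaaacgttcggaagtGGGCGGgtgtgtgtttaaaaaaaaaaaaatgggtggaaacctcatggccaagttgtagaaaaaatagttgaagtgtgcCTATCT
All 3 windows held a GATA motif, as did 30.3% of the 33469 promoter windows of the table. The Add2 window had TGATAA beginning at -102 and AGATAA on the opposite strand at -75, counted from the start site, with CCACACCC on the opposite strand at -55. CCACACCC occurred in 3.22% of all windows. The Epb42 window had AGATAG at -82 and CAGCTG, found in 15.1% of all windows, at -95. In the Gypc window AGATAG on the opposite strand at -115 shared 1 base with TGATAG at -110, and a further AGATAG stood at 44 on the opposite strand. The Gypc window also had CAGATG at -101 (in 16.6% of all windows) and CCGCCC at -34 on the opposite strand (in 33.1%). These are matches of letters and not measured binding sites.

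Slc4a1, Epb42 and Add2 differed widely between rats, and Gypc and Dmtn less so. For Slc4a1 probe 1 the lowest and highest of 18 arrays were 16.3-fold apart, with an SD of 1.49 on the log2 scale, larger than that of 99.8% of the 25237 probes tested. The SD of Add2 was 1.15 for probe 1 and 1.28 for probe 2, above 99.0% and 99.5% of probes. That of probe 2 includes values not well above background, on LFD replicates 4 and 5 and HFD replicate 4. Epb42 spanned 11-fold with an SD of 0.98, above 97.6% of probes. Gypc probe 1 spanned 4.48-fold with an SD of 0.51, above 72.8% of probes, and Dmtn probe 1 spanned 2.48-fold with an SD of 0.42, above 59.3%. The median SD over all probes was 0.36. In the Cy3 pool Dmtn probe 1 was well above background on only 11 of the 18 arrays.

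Band 3 comes first among the membrane proteins. Slc4a1 probe 1 ran from -2.61 to -0.79 in HPD rats (median -1.71), from -2.5 to 1.42 in HFD rats (median -0.22) and from -2.56 to 1.25 in LFD rats (median -0.16). All 6 HPD arrays were below the pool, 5 of them by more than 1 unit, whereas 3 of 6 HFD and 3 of 6 LFD arrays stood above the pool and the rest below it. The lowest of all 18 arrays was an HPD array, the lowest values of the 3 diets lay close together, and the HPD range overlapped both others. The mean was -1.69 ± 0.65 in HPD, -0.46 ± 1.70 in HFD and -0.46 ± 1.74 in LFD (SD, n = 6 each). The HPD minus LFD difference was -1.23 ± 0.77 (SE), a mean 2.34-fold lower in HPD, with a 95% interval of -2.86 to 0.40 (limma, adjusted p = 1), and all 6 HPD rats lay below the LFD mean. The dim probe 2 of Slc4a1 correlated with probe 1 across the 18 arrays (r = 0.65), although 14 of those values were not well above background. Its mean was -0.22 in HPD, 0.089 in HFD and 0.22 in LFD, with 3 of 6 arrays of each diet above the pool.

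Epb42, the partner of band 3, ran from -1.67 to -0.24 in HPD rats (median -0.57), from -2.22 to 1.24 in HFD rats (median 0.31) and from -1.34 to 0.98 in LFD rats (median -0.025). All 6 HPD arrays were again below the pool, against 2 of 6 HFD and 3 of 6 LFD arrays. The mean was -0.77 ± 0.52 in HPD, -0.084 ± 1.29 in HFD and -0.072 ± 0.98 in LFD (SD, n = 6 each). Between HPD and LFD the difference was -0.70 ± 0.53 (SE), with a 95% interval of -1.81 to 0.41 (limma, adjusted p = 1).

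Gypc probe 1, for the glycophorin of the actin nodes, ran from -1.01 to 0.24 in HPD rats (median -0.13), from -0.22 to 0.22 in HFD rats (median -0.016) and from -1.23 to 0.94 in LFD rats (median -0.22). The 3 ranges overlapped, and both the lowest and the highest array were from LFD rats. The mean was -0.25 ± 0.45 in HPD, -0.017 ± 0.15 in HFD and -0.16 ± 0.80 in LFD (SD, n = 6 each). HPD minus LFD gave -0.085 ± 0.29 (SE), with a 95% interval of -0.70 to 0.53 (limma, adjusted p = 1).

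Add2 was read by a probe pair. Probe 1 ran from -2.25 to 0.020 in HPD rats (median -0.96), from -2.08 to 1.53 in HFD rats (median -0.22) and from -0.75 to 2.07 in LFD rats (median -0.16). More than 1 unit below the pool were 3 of 6 HPD arrays, 1 of 6 HFD arrays and 0 of 6 LFD arrays. The mean was -1.08 ± 0.85 in HPD, -0.087 ± 1.29 in HFD and 0.14 ± 1.03 in LFD (SD, n = 6 each). The HPD minus LFD difference was -1.22 ± 0.58 (SE), with a 95% interval of -2.43 to -0.0081 (limma, adjusted p = 1), and all 6 HPD rats lay below the LFD mean. Probe 2 gave a smaller difference, and the gap between the probes was not tested. It ran from -1.36 to 0.043 in HPD rats (median -0.96), from -1.75 to 1.11 in HFD rats (median 0.52) and from -3.10 to 1.44 in LFD rats (median -0.091). Its lowest value came from LFD replicate 4, where probe 1 read -0.22. On that array, on LFD replicate 5 (-1.87) and on HFD replicate 4 (-1.67), Cy5 of probe 2 was not well above background. These values near the floor enter the ranges and differences of probe 2. The HPD minus LFD difference of probe 2 was -0.43 ± 0.70 (SE), with a 95% interval of -1.90 to 1.04 (limma, adjusted p = 1). The 2 Add2 probes correlated at r = 0.60 across the 18 arrays.

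Dmtn probe 1 ran from -0.56 to 0.51 in HPD rats (median -0.018), from -0.25 to 0.66 in HFD rats (median 0.023) and from -0.65 to 0.66 in LFD rats (median 0.098). The ranges of the 3 diets overlapped, and the lowest HFD value was higher than the lowest values of the other diets. The mean was -0.045 ± 0.45 in HPD, 0.12 ± 0.36 in HFD and 0.064 ± 0.49 in LFD (SD, n = 6 each). For HPD minus LFD the difference was -0.11 ± 0.24 (SE), with a 95% interval of -0.62 to 0.40 (limma, adjusted p = 1). In the Cy3 pool this probe was well above background on 11 of 18 arrays.

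**Figure D1:**
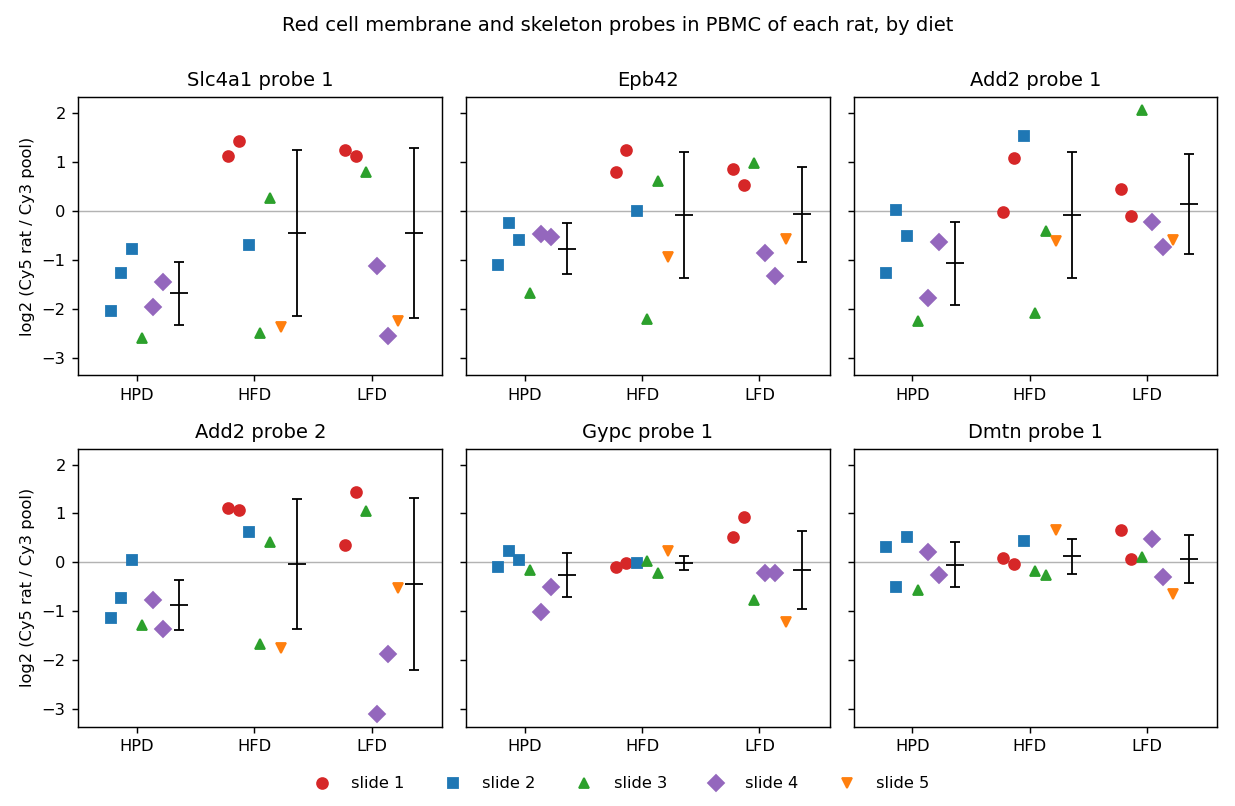
Log2 ratio of Cy5 (1 rat) to Cy3 (pool) for the 6 probes that passed the filter, by diet. Each point is 1 array with its shape and colour giving the slide, and black bars are the mean ± SD (n = 6). For Slc4a1 and Epb42 all 6 HPD points lie below 0, while the HFD and LFD points spread to both sides of 0.

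By limma's moderated test with Benjamini-Hochberg adjustment over all 25237 probes, 0 of the 6 probes passed an adjusted p of 0.05 for HPD against LFD, and 0% of all probes did. At an unadjusted p under 0.05, 1 of the 6 probes (Add2 probe 1) was lower, against 2.84% of all probes in either direction and 1.21% lower. The difference was below 0 for 6 of 6 probes, against 46.1% of all probes, with a median of -0.56 against 0.017 over all probes. These probes share arrays and, for Add2, a gene, and are not independent. Their genes were chosen with earlier results of these data known. For HPD against HFD, 0 of 6 probes and 0% of all probes passed the adjusted threshold. At an unadjusted p under 0.05, 0 of 6 did, against 3.02% of all probes. This difference too was below 0 for 6 of 6 probes, against 47.7% of all probes. The HPD minus HFD difference was -1.23 ± 0.77 for Slc4a1 probe 1 and -0.69 ± 0.53 for Epb42 (SE). It was -0.99 ± 0.58 for Add2 probe 1, -0.84 ± 0.70 for Add2 probe 2, -0.23 ± 0.29 for Gypc probe 1 and -0.17 ± 0.24 for Dmtn probe 1 (SE, adjusted p = 0.995 for each by limma). Both HPD comparisons use the same HPD arrays, so their agreement in sign is not a second observation.

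HFD and LFD rats had nearly the same means of Slc4a1 and Epb42. The HFD minus LFD difference was 0.00047 ± 0.77 for Slc4a1 probe 1, with a 95% interval of -1.63 to 1.63, and -0.012 ± 0.53 for Epb42, with an interval of -1.12 to 1.1. It was -0.23 ± 0.58 for Add2 probe 1, 0.41 ± 0.70 for Add2 probe 2, 0.15 ± 0.29 for Gypc probe 1 and 0.056 ± 0.24 for Dmtn probe 1 (SE, adjusted p = 1 for each by limma). For this comparison 0 of 6 probes and 0% of all probes passed the adjusted threshold, and at an unadjusted p under 0.05 the counts were 0 of 6 probes and 2.01% of all probes. The difference was below 0 for 2 of 6 probes, against 48.5% of all probes. An F test over the 3 diets by limma called 0 of 6 probes and 0% of all probes, and at an unadjusted p under 0.05 it took 0 of 6 probes and 2.3% of all probes. Between HFD and LFD the interval for Slc4a1 reached beyond a 2.34-fold change in either direction, so it does not exclude a difference of that size.

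**Figure D2:**
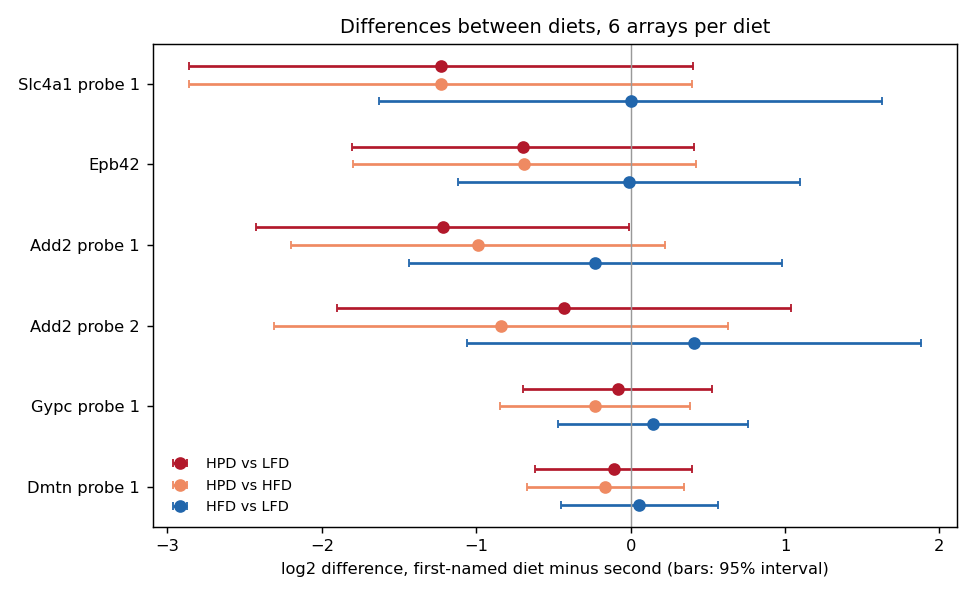
Log2 difference between diets for each of the 6 probes, as points with 95% intervals from limma; each difference is the first-named diet minus the second, with 6 arrays per diet. The HPD points of Slc4a1, Epb42 and Add2 lie to the left of 0, and apart from Add2 probe 1 against LFD, whose interval ends at -0.0081, every interval includes 0.

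Slc4a1 stood highest on slide 1. All 4 arrays of slide 1, 2 HFD and 2 LFD, had log2 ratios of 1.12 to 1.42, and every other array was at or below 0.80. Other probes had their highest slide mean there too: Epb42 (0.85), Add2 probe 2 (0.99), Add2 probe 1 (0.35) and Gypc probe 1 (0.33). For Dmtn probe 1 the mean was 0.195 on slide 1 and 0.194 on slide 2. Slide 1 had no HPD array, so it enters both HPD comparisons only through the other diet. A moderated F test of slide with diet in the model called 0 of the 6 probes and 0.353% of all probes by limma, with an adjusted p of 0.0918 for Slc4a1 probe 1 and 0.151 for Add2 probe 2. At an unadjusted p under 0.05 these 2 of 6 probes were past the threshold, against 23.2% of all probes. Slide 1 arrays had a median Cy5 signal of 72.6 to 84.3 units, against 61.5 to 75 on the others. Slide was tested only by this F test and enters the fits below, while the part of signal in the Slc4a1 values was not tested.

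Where HPD and LFD rats shared a slide, the values were mixed. On slide 4 Slc4a1 averaged -1.71 in 2 HPD rats and -1.84 in 2 LFD rats, a difference of 0.13. On slide 3 it was -2.61 in 1 HPD rat and 0.80 in 1 LFD rat, a difference of -3.41. Epb42 differed by 0.60 on slide 4 and by -2.65 on slide 3, again HPD minus LFD. Add2 probe 1 was lower in HPD on both slides, at -1.22 in HPD and -0.48 in LFD rats of slide 4 and at -2.25 in the HPD rat and 2.07 in the LFD rat of slide 3. Add2 probe 2 differed by 1.42 on slide 4 and by -2.33 on slide 3. Gypc probe 1 differed by -0.54 and 0.60, and Dmtn probe 1 by -0.11 and -0.68, on slides 4 and 3 in that order.

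Without the 4 arrays of slide 1 the HPD minus LFD difference was -0.41 for Slc4a1 probe 1 and -0.32 for Epb42 (adjusted p = 0.865 for each by limma), and -1.20 for Add2 probe 1 (adjusted p = 0.667). It was 0.36 for Gypc probe 1, 0.24 for Add2 probe 2 and 0.042 for Dmtn probe 1, so the sign of these 3 turned. With slide as a fixed block the difference was -0.91 for Slc4a1 probe 1, -0.45 for Epb42 and -1.78 for Add2 probe 1 (adjusted p = 0.999 for each by limma). HPD and HFD rats shared slide 2, with 3 HPD arrays and 1 HFD array, and slide 3, with 1 HPD and 2 HFD arrays. The array with conflicting labels was among the HPD arrays of slide 2. In that order of slides Slc4a1 differed by -0.67 and -1.49, Epb42 by -0.65 and -0.87, and Add2 probe 1 by -2.12 and -1.0. Without slide 1 the HPD minus HFD difference was -0.36 for Slc4a1 probe 1, -0.13 for Epb42 and -0.68 for Add2 probe 1. HFD and LFD rats shared slide 1 (2 arrays of each), slide 3 (2 HFD and 1 LFD) and slide 5 (1 of each). On these Slc4a1 differed by 0.087, -1.92 and -0.11 in that order.

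**Figure D3:**
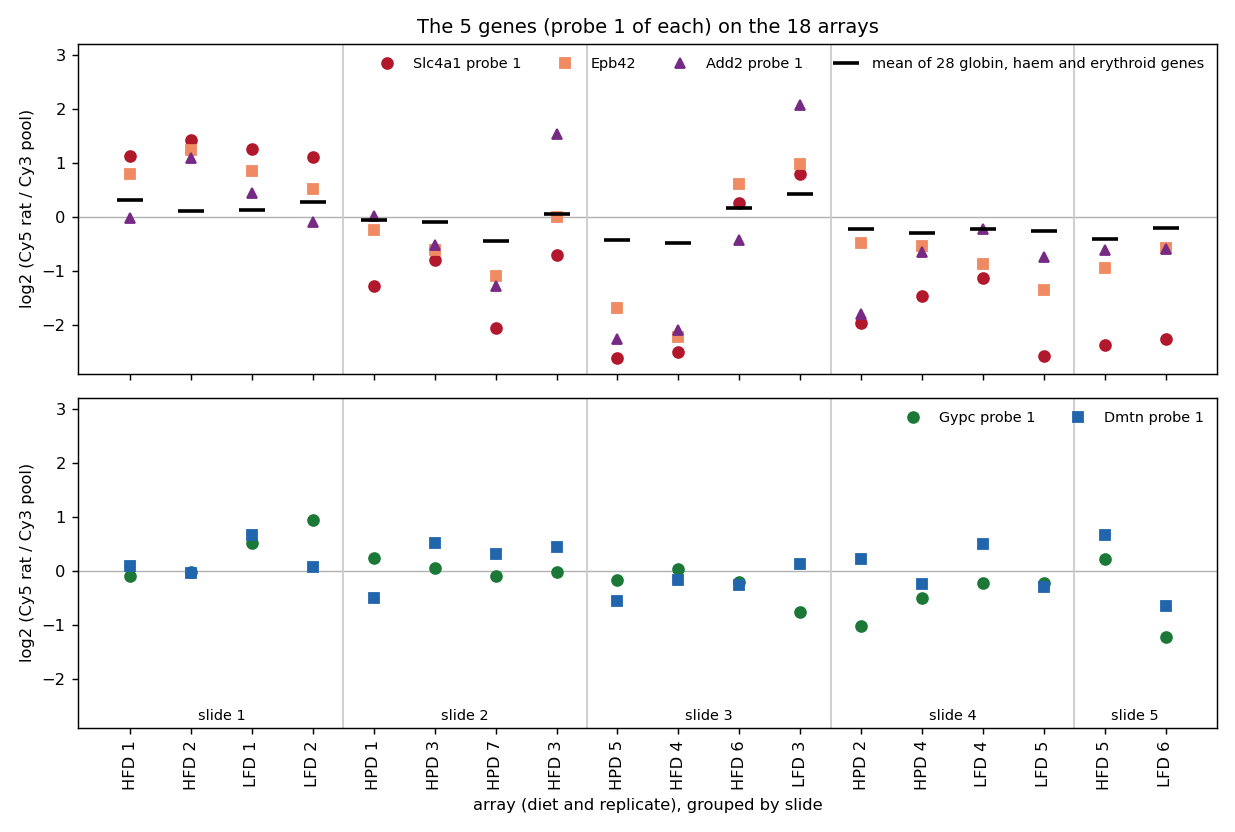
Log2 ratio of Cy5 (1 rat) to Cy3 (pool) on each of the 18 arrays, grouped by slide, for Slc4a1, Epb42 and Add2 (top) and for Gypc and Dmtn (bottom), probe 1 of each. Black dashes in the top panel give the mean over 28 globin, haem and erythroid regulator genes. Slc4a1 stood at 1.12 to 1.42 on the 4 arrays of slide 1, while Gypc and Dmtn stayed between -1.23 and 0.94 on every array. Epb42 (0.85), Add2 (0.35) and Gypc (0.33) also had their highest slide mean on slide 1.

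Slc4a1, Epb42 and Add2 moved together across the rats. Slc4a1 and Epb42 correlated at r = 0.93 and rho = 0.92 over 18 arrays (permutation p = 1e-05, the smallest that 100000 permutations can give, adjusted p = 1e-04 over 10 pairs). Epb42 and Add2 probe 1 had r = 0.78 (permutation p = 0.00014, adjusted 7e-04) and rho = 0.84 (permutation p = 8e-05, adjusted 0.000267). Slc4a1 and Add2 probe 1 had r = 0.71 (permutation p = 0.00086, adjusted 0.00287) and rho = 0.84 (permutation p = 7e-05, adjusted 0.000267). Without the 2 arrays farthest from the median of the first gene, r was 0.90, 0.70 and 0.66 for these 3 pairs in that order. Outside slide 1, in 14 arrays, r was 0.88, 0.78 and 0.76. After diet and slide means were taken out, the residuals correlated at 0.93, 0.85 and 0.81. No slide holds more than 4 arrays, too few for a correlation within one.

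No pair with Gypc or Dmtn passed the same test. The 7 pairs that include either gene had r of 0.11 to 0.36 and rho of 0.077 to 0.36, with permutation p adjusted over the 10 pairs of 0.31 to 0.76. Outside slide 1 their r ran from -0.29 to 0.29, and between residuals after diet and slide means it ran from -0.48 (Epb42 and Gypc) to 0.24. The residuals of Gypc correlated at -0.34 with those of Slc4a1 and at -0.37 with those of Add2, so the sign of all 3 pairs turned. Slc4a1 and Gypc, which encode the membrane anchors of the ankyrin and Epb41 links, had r = 0.36 (permutation p = 0.143) and rho = 0.27 (permutation p = 0.274). Without the 2 farthest arrays their r was 0.27, and outside slide 1 it was -0.065. Dmtn probe 1 had a Cy3 signal well above background on 11 of 18 arrays. The part of this in its weak correlations was not tested.

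**Figure D4:**
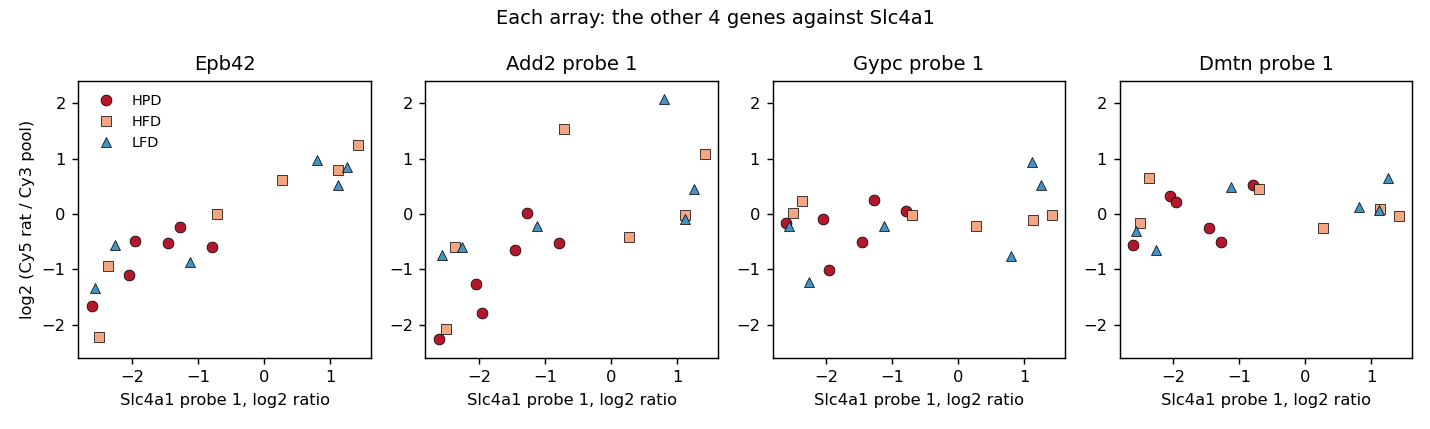
Log2 ratio of Epb42, Add2, Gypc and Dmtn (probe 1 of each) on the vertical axes against that of Slc4a1 probe 1 on the horizontal axis, 1 point per array, with shape and colour for diet. Epb42 and Add2 are higher where Slc4a1 is higher (r = 0.93 and 0.71), and Gypc and Dmtn form flat clouds (r = 0.36 and 0.28).

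The genes most like each member were taken by Pearson's r over the 18 arrays, with 1 probe for each of 11312 named genes. These correlations are descriptions across arrays that share slides and the pool. Closest to Slc4a1 were Rsad2 (r = 0.97, called Best5 on the array, an antiviral protein induced by interferon), Aqp1 (r = 0.94, the water channel of the red cell membrane), Tspan8 (r = 0.93), Rhd (r = 0.93, the Rh blood group protein) and Car2 (r = 0.91, a carbonic anhydrase). Closest to Epb42 were Car2 (r = 0.94), Rsad2 (r = 0.93), Rhd (r = 0.91), Aqp1 (r = 0.91) and Selenbp1 (r = 0.90, a selenium-binding protein). Closest to Add2 were Fgf17 (r = 0.92), Alas2 (r = 0.92, the erythroid enzyme that starts haem synthesis), Car2 (r = 0.86), Selenbp1 (r = 0.86) and Nrtn (r = 0.85). Gypc had other neighbours: Etnk1 (r = 0.96), Baz1b (r = 0.95), Gpr160 (r = 0.93), Cd47 (r = 0.92, a surface protein of red and white cells) and Trim27 (r = 0.92). For Dmtn the closest were Tnfsf12 (r = 0.80), Lim2 (r = 0.77), Swsap1 (r = 0.75), Tpgs2 (r = 0.74) and Mycs (r = 0.74). Outside slide 1 the r of the closest gene was 0.94 for Slc4a1, 0.90 for Epb42, 0.92 for Add2, 0.95 for Gypc and 0.84 for Dmtn.

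Red cell transcripts outside the membrane went with Slc4a1, Epb42 and Add2 as a mean, while single genes ranged widely. The mean of 28 genes for globins, haem synthesis and erythroid regulators correlated with Slc4a1 at r = 0.90, with Epb42 at 0.91 and with Add2 at 0.78, and with Gypc at 0.17 and Dmtn at 0.13 (18 arrays). Outside slide 1 the 5 values were 0.92, 0.91, 0.83, -0.22 and 0.042 in the same order. With Slc4a1 the r of the 28 single genes ran from -0.60 to 0.90 with a median of 0.32, and it was below 0 for 9 of them. Within the list 7 of 28 genes had r above 0.8 with Slc4a1, among them Hbb (0.89, beta-globin), Fech (0.88, which inserts iron into haem), Alas2 (0.86) and Ahsp (0.83, which stabilises free alpha-globin). Other haem enzymes stood at -0.44 for Alad and -0.60 for Urod, and the erythroid regulators Klf1 and Gata1 at 0.62 and 0.25. Alad and Urod were named after their values were seen. The list mean ran from -0.44 to -0.048 in HPD rats, from -0.48 to 0.31 in HFD rats and from -0.25 to 0.43 in LFD rats. In HPD against LFD 22 of the 28 genes had a difference below 0 and 6 above, with a median of -0.24 and 0 called by limma. The differences were -0.81 ± 0.54 for Ahsp, -0.78 ± 0.55 for Hbb, -0.72 ± 0.47 for Alas2, -0.58 ± 0.37 for Gata1, -0.50 ± 0.53 for Fech and -0.22 ± 0.23 for Klf1 (SE, adjusted p = 1 for each by limma). At an unadjusted p under 0.05 by limma the count was 0 of 28, against 2.84% of all probes. The part of red cell RNA in the values of Slc4a1, Epb42 and Add2 was not tested.

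Markers of other blood cell types were read on the same arrays. All 17 measured platelet genes had an HPD minus LFD difference below 0, against 46.1% of all probes, with a median of -0.56 and 0 called. Their mean ran from -1.18 to -0.080 in HPD rats and from -0.54 to 1.08 in LFD rats. Among them Itga2b, the alpha chain of the fibrinogen receptor, stood at -0.69 ± 0.43 and Pf4, a platelet chemokine, at -0.72 ± 0.55 (SE, limma, adjusted p = 1 for each). In HFD minus LFD and in HPD minus HFD all 17 were below 0 as well, with medians of -0.23 and -0.29. Detection on all 18 arrays held for 15 of these 17 genes, and the platelet mean correlated with Slc4a1 at r = 0.17 and with Epb42 at 0.18 (0.34 and 0.48 outside slide 1). All 12 measured monocyte genes had an HPD minus LFD difference below 0, with a median of -0.37 and 0 called. The monocyte mean ran from -1.50 to 0.29 in HPD rats and from -0.64 to 0.52 in LFD rats, and correlated with Slc4a1 at r = 0.52 (0.31 outside slide 1). Of 13 natural killer and cytotoxic genes 12 were below 0 and 1 above, with a median of -0.20 and 0 called. Their mean correlated with Slc4a1 at r = 0.58, with Gypc at 0.69 and with Dmtn at 0.62, and outside slide 1 at 0.13, 0.50 and 0.68. Of 18 T cell genes 11 were above 0 and 7 below (median 0.011), and of 9 B cell genes 6 were above and 3 below (median 0.088), with 0 called in either list. The mean of the 18 T cell genes correlated with Gypc at r = 0.60 and with Slc4a1 at 0.038. Of 12 neutrophil genes on the array 6 passed the filter, with 2 above 0 and 4 below. The part of these cell types in the values of the 5 genes was not tested.

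Other membrane genes ranged widely in how closely they went with Slc4a1. Of 20 other measured membrane protein genes, 15 had an HPD minus LFD difference below 0 and 5 above, with a median of -0.070 and 0 called. At an unadjusted p under 0.05 by limma, 1 of the 20 was lower, against 1.21% of all probes. It was Aqp1, at -0.91 ± 0.49 in HPD and 0.080 ± 0.90 in LFD (SD, n = 6 each), a difference of -0.99 ± 0.44 (SE, adjusted p = 1 by limma). Stom, stomatin, stood at -0.62 ± 0.40 and Kel, the Kell blood group protein, at -0.52 ± 0.34 (SE). Smaller differences were those of Slc2a1, a glucose transporter, at -0.19 ± 0.15, Rhag, the Rh-associated glycoprotein, at -0.073 ± 0.64 and Cd47 at -0.057 ± 0.27 (SE). With Slc4a1 the r was 0.94 for Aqp1, against 0.36 for Rhag and 0.39 for Slc2a1. Rhd, a near neighbour of Slc4a1 (r = 0.93), stood at -0.90 ± 0.46 (SE). Over the 20 genes r ran from -0.70 to 0.94 with a median of 0.34, and it was above 0.8 for 3 and below 0 for 2. The mean of the 20 correlated with Slc4a1 at r = 0.84 (0.87 outside slide 1).

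Of 18 other measured skeleton genes, 13 had a difference below 0 and 5 above in HPD against LFD, with a median of -0.14 and 0 called. The count at an unadjusted p under 0.05 by limma was 0 of 18, against 2.84% of all probes. Tmod1, which caps the slow-growing end of actin filaments, stood at -1.38 ± 0.70 (SE, limma, adjusted p = 1) with 5 HPD and 6 LFD arrays, since its spot on 1 HPD array was marked as an outlier, and it was well above background on 13 of 18 arrays. Sptb, a spectrin chain of red cells, stood at -0.71 ± 0.41 (SE). Epb41, whose product joins spectrin to actin, stood at -0.11 ± 0.14. The adducin partners of Add2, which are made in most cells, were near 0, with Add1 at 0.028 ± 0.087 and Add3 at -0.025 ± 0.18 (SE, adjusted p = 1 for each by limma). Ank1, the erythroid ankyrin, did not pass the filter. The r with Slc4a1 was 0.87 for Tmod1 and 0.73 for Sptb, against 0.22 for Add1.

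Relatives of band 3, carbonic anhydrases and relatives of protein 4.2 gave 0 calls. Of 5 measured genes of the Slc4a family or for carbonic anhydrases, 4 had an HPD minus LFD difference below 0 and 1 above. Slc4a2, an anion exchanger of many tissues, stood at -0.042 ± 0.21 (SE) with r = -0.64 to Slc4a1. Car2 stood at -0.44 ± 0.29 (SE) with r = 0.91 to Slc4a1. Of 3 measured transglutaminase genes, 2 were below 0, with Tgm2 (tissue transglutaminase) at -0.44 ± 0.40 and F13a1 (the clotting factor XIII A chain) at -0.88 ± 0.59 (SE, adjusted p = 1 for each by limma). None of the 8 genes had an unadjusted p under 0.05 by limma, against 2.84% of all probes.

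**Figure D5:**
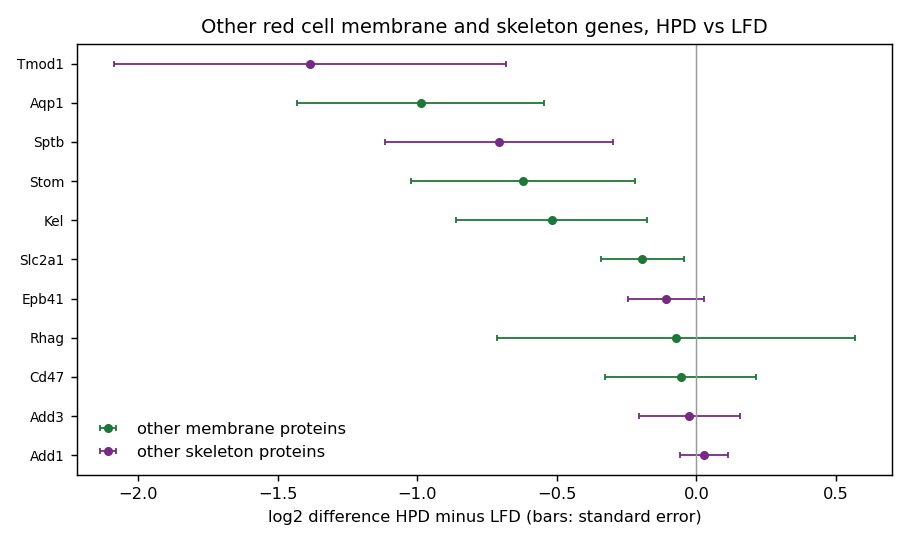
HPD minus LFD difference in log2 ratio for some of the other red cell membrane genes (6) and skeleton genes (5), ordered by size. Bars give the standard error (6 arrays per diet, but 5 HPD arrays for Tmod1), and Rhd is not drawn. Tmod1 (-1.38), Aqp1 (-0.99) and Sptb (-0.71) lie far to the left, and Rhag (-0.073), Cd47 (-0.057), Add3 (-0.025) and Add1 (0.028) lie near 0. Over all measured genes, drawn or not, 5 of 20 other membrane genes and 5 of 18 other skeleton genes were above 0.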

How the data were processed

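RNA of PBMC from 18 rats was measured on Agilent 2-colour arrays. Per the submitters' processing notes, the scans were read by Agilent Feature Extraction 10.5.1.1, and the authors deposited its output for each array. The processed signals in it are deposited intensity values, background-subtracted, detrended and dye-normalized per the file headers. A deposited table of the authors' log2 values, with unstated processing, was used only as an alternative: its columns had medians of 8.40, and its differences between arrays correlated at 0.885 (slope 0.700) with those of the ratios, so its direction could be matched while its scale and centring stay unknown.

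From the processed signals log2(Cy5/Cy3) was computed per spot. Control spots were left out, spots marked as outliers were set to missing, and spots of a probe were averaged. The filter kept 25237 probes whose Cy5 was well above background in 5 or more of the 18 arrays, and these were fitted by limma 3.58.1 (R 4.3.3) with 1 mean per diet, moderated variances and Benjamini-Hochberg adjustment over all probes, at a threshold of 0.05. The script was tested on simulated data. Some genes of the lists enter counts and means but are not reported here by name. Probes were named through a RefSeq table of GRCr8, to which 21498 of 41012 matched. Slides come from the barcode of each array, and slide and scan cannot be told apart. Correlations between members were tested by two-sided permutation with 100000 draws. Each array is a different animal per the labels. Precision is limited by the number of arrays.

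The members, gene lists and tests were chosen with earlier results of these data known. Named were every member probe, genes fixed by name from the lists, and for each member's brightest probe the 5 named genes with the highest r. A gene with more than 1 probe is represented in lists by its brightest. Alternatives were normexp background models fitted to all spots and without marked spots, scaling, centring, Cy5 alone, marked spots kept, filters, 1 probe per gene, slide as a block, slide 1 left out, array weights, the array with conflicting labels, a replicate block and each array left out. The correlations without slide 1 were added after seeing the data. No diet group of 6 had an array beyond Dixon's 95% critical value for any member probe that passed the filter (0 of 18 groups).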

Additional observations from a re-analysis of the deposited data

How the results depend on the processing

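The member probes called numbered 0 in each diet comparison under every alternative tried. Of 624 alternative values of the 6 probes, 576 kept their direction, 48 turned it and 0 passed the adjusted threshold (lowest adjusted p 0.515). The HPD minus LFD and HPD minus HFD differences of Slc4a1, Epb42 and Add2 probe 1 stayed below 0 throughout, at -1.65 to -0.41, -0.95 to -0.32 and -1.78 to -0.83 against LFD. The differences that turned are given next, and the cause was not tested. In HPD minus LFD, Gypc was 0.14 with Cy5 alone, 0.0053 in the authors' table, 0.36 without slide 1 and 0.11 with array weights; Add2 probe 2 was 0.24 without slide 1 and 0.097 with array weights; and Dmtn was 0.042 without slide 1. In HPD minus HFD, Dmtn was 0.0057 in the authors' table. In HFD minus LFD, Slc4a1 was -0.020 with normexp fitted to all spots, -0.25 with scaling, -0.0015 in the authors' table, -0.25 with slide as a fixed block, -0.11 with slide as a random block, -0.043 without slide 1 and -0.23 with the conflicting array as HFD. Epb42 was 0.12 and 0.027 with normexp fitted to all spots and without marked spots, 0.00052 with centring and 0.12 with array weights. Gypc was -0.056 with normexp fitted to all spots, and Add2 probe 2 was -0.081 with slide as a fixed block. Dmtn was -0.024 and -0.036 with the normexp fits, -0.13 with Cy5 alone and -0.050 in the authors' table.

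Leaving out each array in turn gave HPD minus LFD ranges of -0.30 (without LFD replicate 6) to 0.14 (without LFD replicate 2) for Gypc, -0.25 (without LFD replicate 6) to 0.0093 (without LFD replicate 1) for Dmtn and -0.96 (without LFD replicate 4) to -0.053 (without LFD replicate 2) for Add2 probe 2. In HPD minus HFD, Epb42 ran from -1.11 (without HFD replicate 4) to -0.42 (without HFD replicate 2). In HFD minus LFD the ranges were -0.42 to 0.41 for Slc4a1, -0.28 to 0.41 for Epb42, -0.066 to 0.37 for Gypc, -0.55 to 0.17 for Add2 probe 1, -0.12 to 0.79 for Add2 probe 2 and -0.087 to 0.17 for Dmtn, with HFD replicate 4 and LFD replicates 5 and 6 among the arrays at the ends. Over all probes, HPD against LFD had 0 called, 2 with array weights, and 0 to 1 when arrays were left out (1 without LFD replicate 2). Slide, given diet, had 89 probes called, against 830 and 884 with the normexp fits to all spots and without marked spots, 25 with scaling, 164 with centring, 168 with Cy5 alone, 2044 in the authors' table, 8 with no filter on dim probes and 263 with probes above background on all 18 arrays.

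Replicate numbers did not pair the rats: deviations of same-numbered arrays correlated at -0.42 to 0.31. With the replicate block 0 probes were called, and HPD minus LFD was -1.26 for Slc4a1 and -1.29 for Add2 probe 1 (adjusted p = 0.982 for each by limma). The dim second probes of Gypc and Dmtn, with Cy5 well above background on 0 of 18 arrays, allow no statement on the transcripts they cover.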
